A study of Mus musculus with 24 samples.

Results

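The 9 mature miRNAs described here are ones that blood vessels are known for: miR-126a-3p, miR-126a-5p, and miR-126b-3p of endothelial cells, miR-143-3p, miR-145a-5p, and miR-145a-3p of mural cells (smooth muscle cells and pericytes), and miR-221-3p, miR-221-5p, and miR-222-3p of both. They were chosen by name and not by their values, and are 9 of the 1531 mouse miRNAs counted. The libraries came from 8 CD1 mouse pups at postnatal day 9. In 4 pups, the hypoxic-ischemic brain injury (HIBI) group, the right common carotid artery was cauterized under isoflurane with local bupivacaine, and once 2 h had passed the pups breathed 8% oxygen for 30 min. The 4 sham pups had the same anesthesia, analgesia, and neck dissection with the artery not closed, and were kept apart from the dam in normal air for as long. Tissue was collected 30 min after the end of hypoxia or normal air, and the right cerebellum, striatum/thalamus, and cortex of each pup were sequenced, so that each of the 6 combinations of group and region has 4 libraries. CD1 is an outbred strain, pups of both sexes were used, and each library mixed the RNA of all cells of the region, vessel cells among them.

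The 24 libraries held 1254185 to 3406624 counts on mouse miRNAs, and the 9 miRNAs together took 0.333% to 1.15% of them. Levels are given as CPM, the counts of a miRNA per 1000000 mouse miRNA counts of a library, with libraries scaled to each other by the trimmed mean of M-values (TMM), and 1 count was worth 0.294 to 0.797 CPM before that scaling. The defining neural miRNAs miR-124-3p, miR-9-5p, and miR-128-3p were each at 18258 CPM or more in every library, so the tissue was neural as labelled. Even the closest pair of replicates, HIBI pups 5 and 7 in the cortex, differed by more than sampling noise (chi-square per degree of freedom 26.5), so each library was counted once.

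MiR-126 is cut from an intron of Egfl7, a gene of endothelial cells, and is known for its part in vessel integrity and in the response of endothelial cells to VEGF. MiR-143 and miR-145 come from a shared transcript, are abundant in smooth muscle cells and pericytes, and are known for keeping these cells in a contractile state. MiR-221 and miR-222 are X-linked neighbors known to repress Kit and the cell cycle inhibitor Cdkn1b, and to act on the growth of endothelial and smooth muscle cells. They are not restricted to vessels, and neither are the other miRNAs named here.

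In GRCm38, the Mir126a hairpin lies at chr2:26591357-26591429 on the plus strand, and Mir126b lies inside it at chr2:26591363-26591420 on the minus strand. Of 19 annotated transcripts of Egfl7, 9 span the hairpin, with the hairpin in an intron in 8 of them and in an exon of the other, which is a retained-intron transcript. Mir221 at chrX:19146294-19146388 and Mir222 at chrX:19146893-19146971 are 504 bases apart on the minus strand and lie in no other annotated gene. The hairpins of miR-143 and miR-145a are 1301 bases apart on the same strand. RefSeq (GRCm38.p6) held a mature sequence for 5 of the 9 miRNAs. These are shown because the shared seed of miR-221-3p and miR-222-3p, and the opposite strands of miR-126a and miR-126b, bear on how the counts below can be read. Capitals mark the seed, bases 2 to 8 from the 5′ end.
miR-126a-3p: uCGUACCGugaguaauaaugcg
miR-126b-3p: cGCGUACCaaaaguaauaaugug
miR-221-3p: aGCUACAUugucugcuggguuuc
miR-222-3p: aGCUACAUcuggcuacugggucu
miR-221-5p: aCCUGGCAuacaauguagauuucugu

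MiR-221-3p and miR-222-3p share the seed GCUACAU and their first 8 bases, and match at 11 of 23 positions in all, so that a whole read of either can be told from the other. Of the other mature mouse miRNAs in RefSeq, miR-1928 has this seed. The reverse complement of miR-126b-3p lies, over all 23 bases, in the Mir126a hairpin from position 7 of 73, on the side that gives miR-126a-5p. The counting is not stated to have used the strand of the reads, and without it the reads of miR-126a-5p and miR-126b-3p cannot be told apart.

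As named in the count tables, mmu-miR-126a-3p and mmu-miR-143-3p were the most abundant of the 9, with means over the 24 libraries of 2695 and 2368 CPM, and ranked 52 and 58 of all mouse miRNAs. Next came mmu-miR-221-3p at 853 CPM, mmu-miR-145a-5p at 558 CPM, mmu-miR-222-3p at 335 CPM, and mmu-miR-221-5p at 132 CPM. The other arms were rare. The levels were 13.1 CPM for mmu-miR-145a-3p, 9.52 CPM for mmu-miR-126b-3p, and 8.39 CPM for mmu-miR-126a-5p, the last with 2 to 54 counts in a library, so its counting error was large. These levels are not divided by length, and the mature sequences shown above have 22 to 26 bases. No library had 0 counts of any of the 9.

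**Figure D1:**
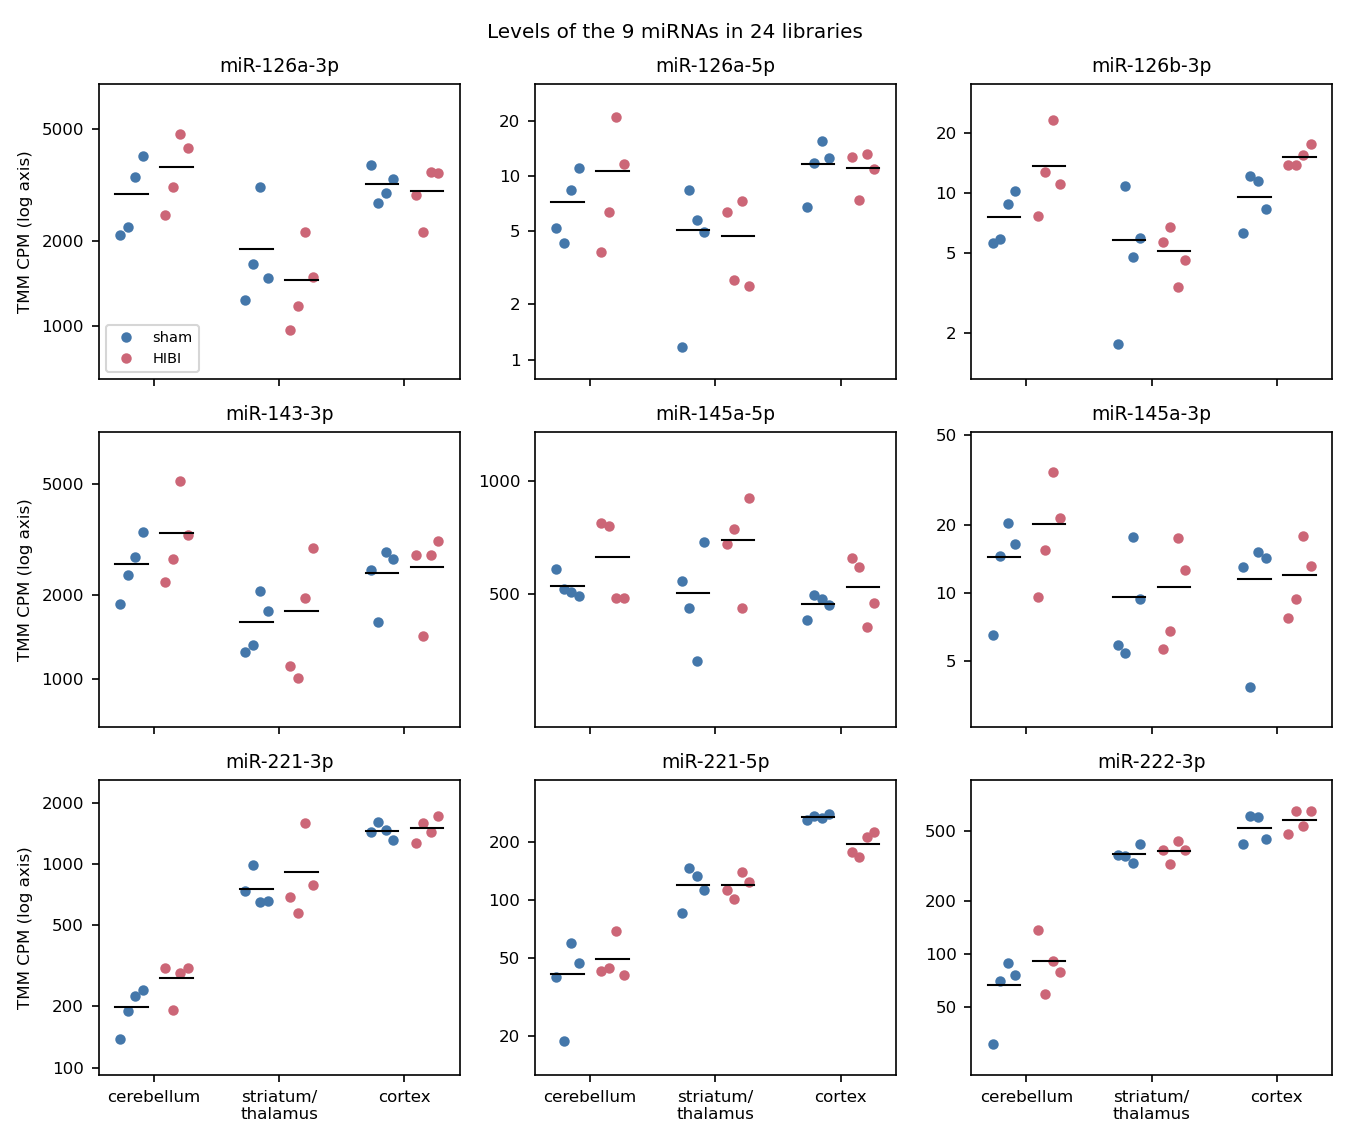
TMM-scaled CPM (log axis) of each of the 9 miRNAs in the 24 libraries, by region. Each point is a library of sham (blue) or HIBI (red), in order of pup number, and each bar is the mean of 4 libraries. MiR-221-3p, miR-221-5p, and miR-222-3p are lowest in the cerebellum in both groups, and miR-126a-3p and miR-143-3p have their lowest group means in the striatum/thalamus.

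The 3 regions were first compared in the 12 sham libraries. The miR-221 and miR-222 miRNAs were higher in both forebrain regions than in the cerebellum, while the endothelial miR-126a-3p and the mural miR-143-3p had their lowest group means in the striatum/thalamus. The mural miR-145a-5p did not share this, with its lowest sham mean in the cortex (469 CPM, beside 505 in the striatum/thalamus). The rare mural miR-145a-3p had its lowest sham mean in the striatum/thalamus, at 9.59 CPM. A miRNA was called between regions with a fold change above 1.5 and an adjusted p-value under 0.05 in edgeR's quasi-likelihood test, with Benjamini-Hochberg adjustment over the 423 miRNAs above an average of 10 CPM. MiR-126a-5p and miR-126b-3p fell below that minimum here, which left 7 of the 9. In bulk tissue, fewer cells of a type and less of a miRNA per cell cannot be told apart.

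MiR-221-3p was at 138, 189, 226, and 239.6 CPM in the sham cerebellum (pups 2, 3, 6, and 8), at 735, 988, 652, and 659 CPM in the striatum/thalamus, and at 1440.1, 1614, 1472, and 1322 CPM in the cortex of the same pups. The 3 regions did not overlap, and the order cerebellum, striatum/thalamus, cortex held in each of the 4 pups. The difference was 2.84 on the log2 scale for cortex against cerebellum (SE 0.217, adjusted p = 7.95e-08), 1.99 for striatum/thalamus against cerebellum (SE 0.210, adjusted p = 1.52e-06), and 0.84 for cortex against striatum/thalamus (SE 0.203, adjusted p = 0.00459).

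Its partner arm miR-221-5p went with it. It was at 268 CPM ± 8.11 (SD, n = 4) in the sham cortex, 119.6 ± 26.3 in the striatum/thalamus, and 41.7 ± 17.4 in the cerebellum. It was called higher in all 3 comparisons, by 2.65 in cortex against cerebellum (SE 0.274, adjusted p = 1.74e-06), 1.58 in striatum/thalamus against cerebellum (SE 0.267, adjusted p = 0.000102), and 1.07 in cortex against striatum/thalamus (SE 0.258, adjusted p = 0.00468) on the log2 scale.

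MiR-222-3p, from the neighboring hairpin, was at 30.8, 70.3, 88.6, and 75.7 CPM in the sham cerebellum. In the striatum/thalamus it was at 364, 358, 331, and 421 CPM and in the cortex at 419, 609, 598, and 449.6 CPM. Both forebrain regions lay above the cerebellum without overlap, and they overlapped with each other. The log2 difference from the cerebellum was 2.91 in the cortex (SE 0.286, adjusted p = 1.01e-06) and 2.52 in the striatum/thalamus (SE 0.282, adjusted p = 2.63e-06). Between cortex and striatum/thalamus it was 0.38 (95% interval -0.18 to 0.94, adjusted p = 0.280), so this unpaired test did not settle their order. Within pups, the cortex was higher in each of the 4 sham pups, by 0.0956 to 0.851 on the log2 scale.

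The endothelial guide strand miR-126a-3p was at 2107, 2247, 3389, and 4029 CPM in the sham cerebellum, at 1236, 1662, 3121, and 1484 CPM in the striatum/thalamus, and at 3731, 2732, 2976, and 3336 CPM in the cortex. The striatum/thalamus was low in pups 2, 3, and 8 and as high as the other regions in pup 6. MiR-126a-3p was called higher in cortex than in striatum/thalamus, by 0.69 on the log2 scale (SE 0.259, adjusted p = 0.0447), and this call was lost without pup 2 (adjusted p = 0.241), pup 3 (adjusted p = 0.120), or pup 8 (adjusted p = 0.208). In striatum/thalamus against cerebellum the log2 difference was -0.60 (SE 0.259, adjusted p = 0.0504), which missed the threshold, and with pup as a block in edgeR it was -0.62 (adjusted p = 0.0354), which passed it. Between cortex and cerebellum the log2 difference was 0.09 (95% interval -0.46 to 0.63, adjusted p = 0.794).

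The mural miR-143-3p was at 1862, 2357, 2746, and 3370 CPM in the sham cerebellum and at 1251, 1325, 2075, and 1752 CPM in the striatum/thalamus. It was lower in the striatum/thalamus than in the cerebellum of each of the 4 pups, and was called lower, with a log2 difference of -0.64 (SE 0.223, adjusted p = 0.0195). The call was lost without pup 3 (adjusted p = 0.0673) or pup 8 (adjusted p = 0.138). The log2 difference of cortex against striatum/thalamus was 0.49 (adjusted p = 0.0930), with cortex higher in each of the 4 pups, and that of cortex against cerebellum was -0.14 (adjusted p = 0.598).

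The miR-145a arms did not pass the test between any pair of regions. MiR-145a-5p had sham means of 525 ± 39.5 CPM (cerebellum), 505 ± 150.4 (striatum/thalamus), and 469 ± 30.3 CPM for the cortex (SD, n = 4), with adjusted p-values of 0.411 to 0.954. The 95% interval of its log2 difference from the cerebellum was -0.65 to 0.24 in the cortex and -0.43 to 0.46 in the striatum/thalamus. MiR-145a-3p had sham means of 14.5 ± 5.85, 9.59 ± 5.67, and 11.6 ± 5.22 CPM in the same order, with adjusted p-values of 0.331 to 0.800.

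In all, 3 of 7 were called higher and 0 lower in cortex than in cerebellum, where 29.3% of all miRNAs tested were called higher and 31.2% lower. In striatum/thalamus against cerebellum 3 of 7 were called higher and 1 lower, beside 32.6% and 30.0% of all miRNAs. In cortex against striatum/thalamus 3 of 7 were called higher and 0 lower, beside 15.1% and 21.5%. Calls were thus common between regions, and the count of members says little by itself. MiR-221-3p, miR-221-5p, and miR-222-3p differed from the cerebellum by 1.58 to 2.91 on the log2 scale. Over all miRNAs tested, log2 differences from the cerebellum ran from -7.54 to 3.77 in the cortex, with a median of -0.13. In the striatum/thalamus they ran from -4.52 to 5.33, with a median of -0.03. Larger differences were thus present among other miRNAs. Other miRNA markers differed between the same libraries. All 4 tested of 6 fibroblast miRNAs were called lower in each forebrain region than in the cerebellum, their summed level being 327 to 431 CPM in the sham cerebellum, 148 to 224 in the cortex, and 75.7 to 184 in the striatum/thalamus, with none of the 6 at 0 in all libraries of a group. These 4 were miR-214-3p, miR-199a-5p, miR-199a-3p, and miR-199b-3p, which are related and are not separate observations. Against the cerebellum, 3 of 4 tested choroid plexus miRNAs were called lower in the cortex and 2 in the striatum/thalamus, and 3 of 4 tested erythrocyte miRNAs in the cortex and 0 in the striatum/thalamus. The 3 erythrocyte miRNAs were miR-486a-5p, miR-486b-5p, and miR-486a-3p, which are related and are not separate observations. Of 2 tested muscle miRNAs, both were called lower in the cortex and miR-206-3p in the striatum/thalamus, at log2 differences down to -5.73 and -3.50. The neural miR-9-5p was called lower in the striatum/thalamus than in the cerebellum, at -0.97 (adjusted p = 0.00155), and miR-128-3p higher in the cortex, at 1.39 (adjusted p = 2.01e-05). Summed levels in the sham cerebellum were 120110 to 190881 CPM for the neural, 2558 to 10184 for the choroid plexus, 1260.4 to 2424 for the erythrocyte, and 447 to 601 for the muscle miRNAs. In the striatum/thalamus they were 88530.1 to 152386, 1883 to 2606, 1283 to 1707, and 52.8 to 141 CPM, and in the cortex 195651 to 223731, 2045 to 2564, 750.6 to 1121, and 28.4 to 63.6 CPM. The part of other cells in the differences of the members was not tested.

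**Figure D2:**
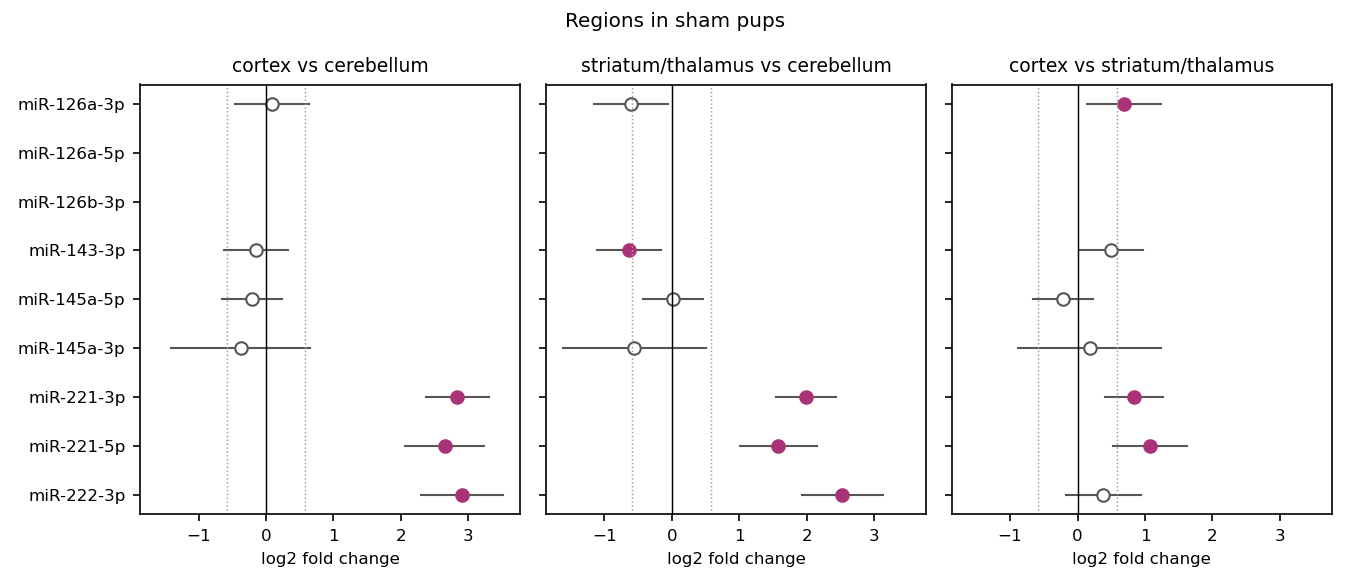
Log2 fold change between regions in sham pups (horizontal axis) for the 7 miRNAs above the CPM minimum, with 95% intervals and with dotted lines at a fold change of 1.5. Filled points passed both criteria, and miR-126a-5p and miR-126b-3p were not tested. MiR-221-3p, miR-221-5p, and miR-222-3p lie to the right of the dotted lines against the cerebellum.

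The same comparison of regions was made in the 12 HIBI libraries, which are of other pups. In the cortex against cerebellum the log2 difference was 2.38 for miR-221-3p (SE 0.321, adjusted p = 7.36e-05), 1.91 for miR-221-5p (SE 0.249, adjusted p = 5.35e-05), and 2.59 for miR-222-3p (SE 0.262, adjusted p = 3.93e-06). These 3 were higher in cortex and in striatum/thalamus than in cerebellum in each of the 4 HIBI pups. MiR-126a-3p was lower in striatum/thalamus than in cerebellum in each of the 4 HIBI pups, with a log2 difference of -1.44 (SE 0.299, adjusted p = 0.00119), and so was miR-143-3p, with -0.998 (SE 0.376, adjusted p = 0.0388). For miR-221-3p the difference of cortex from striatum/thalamus was 0.74 (adjusted p = 0.0780) and was not called in the HIBI libraries.

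The regional profiles of miR-126a-3p and miR-221-3p can be read as a ratio within each library. In sham pups the ratio of miR-126a-3p to miR-221-3p counts was 1.69 to 2.59 in the cortex, 1.68 to 4.78 in the striatum/thalamus, and 11.9 to 16.8 in the cerebellum. In HIBI pups it was 1.34 to 2.44, 1.35 to 2.05, and 8.02 to 16.5. The cerebellum did not overlap with either forebrain region in either group. As labels of vessel cells, these miRNAs gave no single order of the regions.

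HIBI was then compared with sham in each region. Of the 9 miRNAs, a single call was made in the 3 regions, miR-126b-3p in the cortex, and the abundant guide strands miR-126a-3p, miR-143-3p, and miR-221-3p were not called anywhere. A miRNA was called where the regional edgeR fit gave an unadjusted p under 0.05 and a fold change of more than 1.5, the criteria of the study. Beside these fits, each of the 9 in each region was tested by a two-sided exact permutation test over 70 arrangements of the pups, whose smallest possible p is 0.0286. Of these 27 tests, 2 reached it, and the smallest adjusted p over the 27 was 0.386 in this exact permutation test.

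In the cerebellum, 0 of the 8 miRNAs above the CPM minimum were called by edgeR, beside 7.83% of 434 miRNAs. None of the 8 had an unadjusted p under 0.05, and DESeq2 also called 0. With an adjusted p under 0.05 as the rule, 0% of all miRNAs were called by edgeR, 44 having an unadjusted p under 0.05, and DESeq2 gave 0 as well. All 8 log2 fold changes were above 0, from 0.28 to 0.87 with a median of 0.44, beside a median of 0.11 over the 434 miRNAs, and they stayed above 0 under each other scaling, filter, and tool tried and with each pup left out (lowest 0.02). Calls over all miRNAs of the cerebellum turned with the scaling, from 16 higher and 18 lower by TMM to 41 and 10 by library size and 7 and 39 by upper quartile.

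MiR-126b-3p had the largest of them. It was at 5.64, 5.90, 8.81, and 10.2 CPM in the sham cerebellum and at 7.71, 12.8, 23.3, and 11.2 CPM in HIBI (pups 1, 4, 5, and 7), and the groups overlapped. The log2 fold change was 0.87 (SE 0.421, edgeR p = 0.0607, adjusted p = 0.432), with p = 0.114 in the exact permutation test. It was called with scaling by library size only, at 1.01 (adjusted p = 0.370), and without HIBI pup 1, at 1.04 (adjusted p = 0.284), and was 0.49 without HIBI pup 5 (adjusted p = 0.761).

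MiR-221-3p was at 309, 193, 292, and 309 CPM in the HIBI cerebellum, against 138 to 239.6 CPM in sham. HIBI pup 4 lay among the sham pups and the other HIBI pups above them. Its log2 fold change was 0.50 (SE 0.261, edgeR p = 0.0780, adjusted p = 0.432), with p = 0.0857 in the exact permutation test. It was called without HIBI pup 4, at 0.66 (adjusted p = 0.445), and with scaling by library size only, at 0.65 (adjusted p = 0.370).

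For the endothelial guide strand, the HIBI cerebellum held 2478, 3128, 4809, and 4301 CPM of miR-126a-3p, and the groups overlapped. The log2 fold change was 0.35 (SE 0.268, 95% interval -0.24 to 0.93). MiR-143-3p was at 2231, 2696, 5103, and 3287 CPM, with a log2 fold change of 0.39 (SE 0.275, 95% interval -0.21 to 0.98). MiR-145a-5p, miR-145a-3p, miR-221-5p, and miR-222-3p had log2 fold changes of 0.28, 0.50, 0.28, and 0.49 with unadjusted p-values of 0.223 to 0.438. MiR-126a-5p, below the CPM minimum at an average of 9.06 CPM, was at 7.21 ± 3.06 CPM in sham and 10.7 ± 7.55 in HIBI (SD, n = 4).

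Blood markers were also read in the same libraries of the cerebellum. Of 6 erythrocyte miRNAs, 4 were tested and 2 called lower in HIBI, miR-486a-5p and miR-486b-5p, beside 7.83% of all miRNAs called. The smallest adjusted p of the 4 was 0.432 in edgeR. The summed level of the 6 was 1260.4 to 2424 CPM in sham and 939.9 to 1367 in HIBI, with overlap. None of the 6 was at 0 throughout a group. MiR-486a-5p and miR-486b-5p are copies whose reads may be shared, so their 2 calls are not separate observations. Of 3 miRNAs of striated muscle, all tested, miR-1a-3p was called higher (log2 fold change 1.05, adjusted p = 0.432) while miR-206-3p went the other way (-0.53, adjusted p = 0.432) and was not called. The median of the 3 was 0.16, and their summed level was 447 to 601 CPM in sham and 345 to 651 in HIBI. The part of blood or muscle RNA in the values of the 9 miRNAs was not tested.

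In the striatum/thalamus, 0 of the 7 above the CPM minimum were called by edgeR, beside 2.75% of 436 miRNAs. None of the 7 had an unadjusted p under 0.05, and DESeq2 called 0. With an adjusted p under 0.05 as the rule, 0% of all miRNAs were called, 14 having an unadjusted p under 0.05, and DESeq2 gave 0. Log2 fold changes ran from -0.45 to 0.38 with a median of 0.06, beside -0.03 over all miRNAs.

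MiR-126a-3p was at 968, 1178, 2159, and 1497 CPM in the HIBI striatum/thalamus, within the spread of the sham values given above but for pups 1 and 4, which lay below all sham pups. The log2 fold change was -0.45 (SE 0.336, 95% interval -1.19 to 0.29, adjusted p = 0.980 in edgeR). It was -0.00255 without sham pup 6 and -0.73 without HIBI pup 5. MiR-145a-5p was at 682, 747, 459, and 903 CPM in HIBI and at 541, 458, 330.3, and 689 CPM in sham, with overlap and a log2 fold change of 0.38 (SE 0.267, 95% interval -0.21 to 0.97). It was called without sham pup 8, at 0.67 (adjusted p = 0.788).

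MiR-221-3p had a wide spread in the HIBI striatum/thalamus, at 689, 575, 1596, and 789.9 CPM, so that pup 5 alone lay above the sham range of 652 to 988 CPM. Its log2 fold change was 0.19 (SE 0.325) with that pup and -0.24 without it. MiR-222-3p was at 326 to 437 CPM in HIBI and 331 to 421 CPM in sham, with a log2 fold change of -0.02 (95% interval -0.43 to 0.40). The coefficient of variation was 51.1% in HIBI and 24.1% in sham for miR-143-3p, and 51.6% in HIBI and 59.1% in sham for miR-145a-3p. MiR-126a-5p and miR-126b-3p, at averages of 4.98 and 5.47 CPM, were below the minimum.

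In the cortex, all 9 were above the CPM minimum and 1 was called, beside 3.41% of 410 miRNAs. With an adjusted p under 0.05 as the rule, 0 of the 9 passed in edgeR and in DESeq2, beside 0.244% of all miRNAs in edgeR, and 2 of the 9 had an unadjusted p under 0.05. The log2 fold changes ran from -0.46 to 0.66 with a median of 0.06, beside -0.02 over all miRNAs.

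MiR-126b-3p was at 6.30, 12.1, 11.5, and 8.37 CPM in the sham cortex and at 13.9, 13.8, 15.5, and 17.7 CPM in HIBI. The groups did not overlap in CPM, but they did in counts, with 14 to 38 in sham and 25 to 47 in HIBI. The log2 fold change was 0.66 (SE 0.295, edgeR p = 0.0448, adjusted p = 0.914), with p = 0.0286 in the exact permutation test. The call was lost without sham pup 2 (log2 fold change 0.53, adjusted p = 0.996), without sham pup 8, and without HIBI pups 4, 5, or 7, and under 6 other settings of the fit. Summed with miR-126a-5p, whose reads may be mixed with its own, it had a log2 fold change of 0.33 (SE 0.271, adjusted p = 0.962) and was not called.

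MiR-221-5p, the passenger arm of miR-221, was at 259, 271, 265, and 277.5 CPM in the sham cortex and at 178, 167, 211, and 225 CPM in HIBI. Each HIBI library lay below each sham library. The log2 fold change was -0.46 (SE 0.144, 95% interval -0.78 to -0.15, edgeR p = 0.00770, adjusted p = 0.606), with p = 0.0286 in the exact permutation test, and the fold change stayed under 1.5, so the miRNA was not called. The edgeR p stayed between 0.00702 and 0.0268 with each pup left out. With all 24 libraries in 1 edgeR model it did not stay under 0.05, and 0 of the 9 had an unadjusted p under 0.05 in the cortex. Over all miRNAs tested in the cortex, 14 of 410 (3.41%) had groups that did not overlap, as these 2 of 9 did.

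The guide strand of that hairpin overlapped between the groups. MiR-221-3p was at 1267, 1600.1, 1445, and 1729.6 CPM in the HIBI cortex, overlapping with sham, with a log2 fold change of 0.05 (95% interval -0.25 to 0.35). MiR-222-3p was at 519 ± 98.4 CPM in sham and 577 ± 84.3 in HIBI (SD, n = 4), a log2 fold change of 0.16 (95% interval -0.19 to 0.52). MiR-126a-3p was at 3194 ± 436 and 3026 ± 649 CPM, a log2 fold change of -0.09 (95% interval -0.47 to 0.29). MiR-143-3p was at 2404 ± 554 and 2529 ± 750.1 CPM, with a log2 fold change of 0.06 (95% interval -0.46 to 0.57). For these abundant miRNAs the intervals reach to a fold change of at most 1.5 in either direction. MiR-145a-5p, miR-145a-3p, and miR-126a-5p had unadjusted p-values of 0.329 to 0.872. The summed erythrocyte miRNAs, at 750.6 to 1121 CPM in sham and 808 to 1143 in HIBI, overlapped in the cortex.

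**Figure D3:**
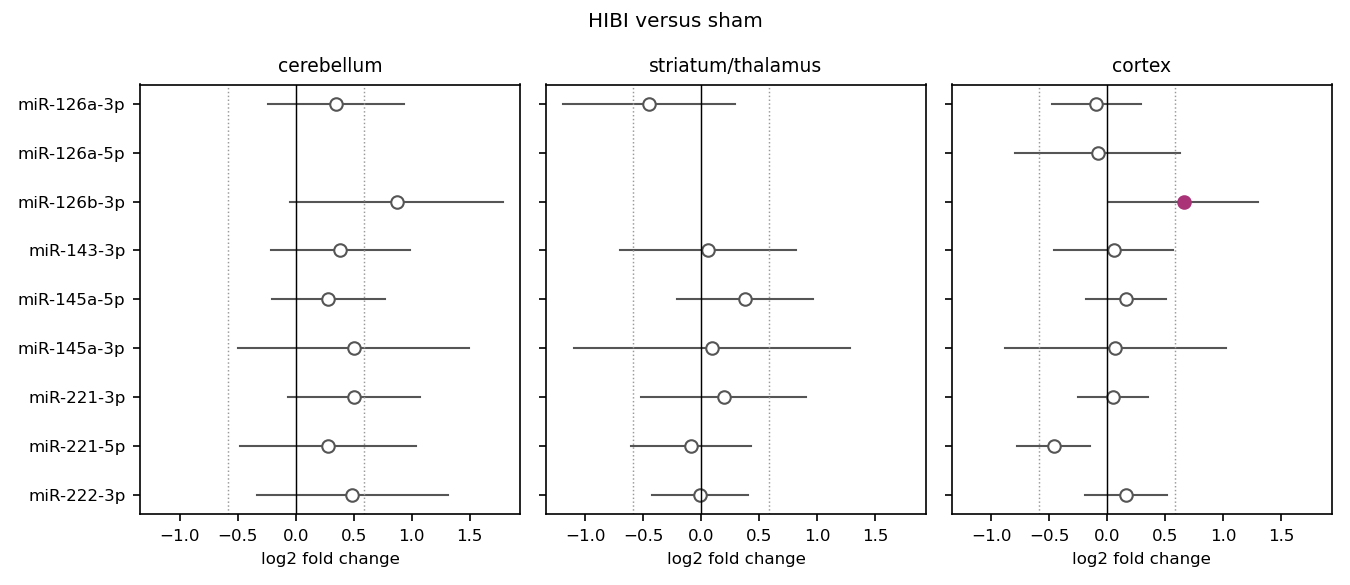
Log2 fold change of HIBI against sham (horizontal axis) in each region, with 95% intervals and with dotted lines at a fold change of 1.5. The filled point, miR-126b-3p in the cortex, passed both criteria, and rows without a point were below the CPM minimum. In the cerebellum all 8 points lie to the right of 0, and every interval there crosses it.

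The question of whether the injury effect differed between the forebrain, exposed to ischemia and hypoxia, and the cerebellum, exposed to hypoxia, was tested as an interaction in 1 edgeR model of all 24 libraries. The adjusted p was under 0.05 for 0 of the 7 tested, and for 0% of the 435 miRNAs. None of the 7 had an unadjusted p under 0.05, 70 of the 435 did, and DESeq2 called 0. The forebrain effect minus the cerebellar effect was -0.55 on the log2 scale for miR-126a-3p (SE 0.353, 95% interval -1.27 to 0.18, adjusted p = 0.439) and -0.48 for miR-221-5p (SE 0.316, 95% interval -1.13 to 0.17, adjusted p = 0.447). For the others it lay between -0.37 and 0.05. These values are from a fit with no term for pup, though each pup gave all 3 regions. With pup as a block in edgeR, 0 of the 435 miRNAs were called and 0 members had an unadjusted p under 0.05.

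Ratios of members within a library need no scaling, and 7 were compared between HIBI and sham in each region, 21 in all. The ratio of miR-221-3p to miR-221-5p in the cortex was 5.56, 5.95, 5.55, and 4.76 in sham and 7.12, 9.54, 6.83, and 7.69 in HIBI. The groups did not overlap, the difference was 0.51 on the log2 scale, and p = 0.0286 in the exact permutation test, with an adjusted p of 0.600 over the 21. In the cerebellum the same ratio was 3.41 to 9.93 in sham and 4.19 to 7.50 in HIBI, and in the striatum/thalamus 4.87 to 8.50 and 5.68 to 11.4, with overlap in both.

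None of the other 20 ratios reached a p under 0.05. Group means (geometric) of the guide to passenger ratio of miR-126a, miR-126a-3p to miR-126a-5p, were 270 to 406. For miR-145a-5p to miR-145a-3p they were 33.2 to 68.2, for miR-143-3p to miR-145a-5p 2.36 to 5.17, for miR-221-3p to miR-222-3p 2.04 to 3.13, and for miR-126a-3p to miR-143-3p 0.867 to 1.35.

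The entries miR-126a-5p and miR-126b-3p, whose sequences lie on opposite strands of the same stretch, held similar numbers of counts. Over the 24 libraries they summed to 483 and 537 counts, and group means of their ratio were 0.705 to 1.20. The other arm of miR-126b, miR-126b-5p, shares 19 of its 22 bases with the reverse complement of miR-126a-3p and summed to 129 counts, beside 150216 for miR-126a-3p. In the cortex the ratio of miR-126a-5p to miR-126b-3p was 1.07, 0.974, 1.34, and 1.49 in sham and 0.922, 0.544, 0.849, and 0.621 in HIBI, without overlap. The difference was -0.74 on the log2 scale, with p = 0.0286 in the exact permutation test. This ratio was computed after the counts had been seen. How many of the counts came from the minus strand was not tested.

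**Figure D4:**
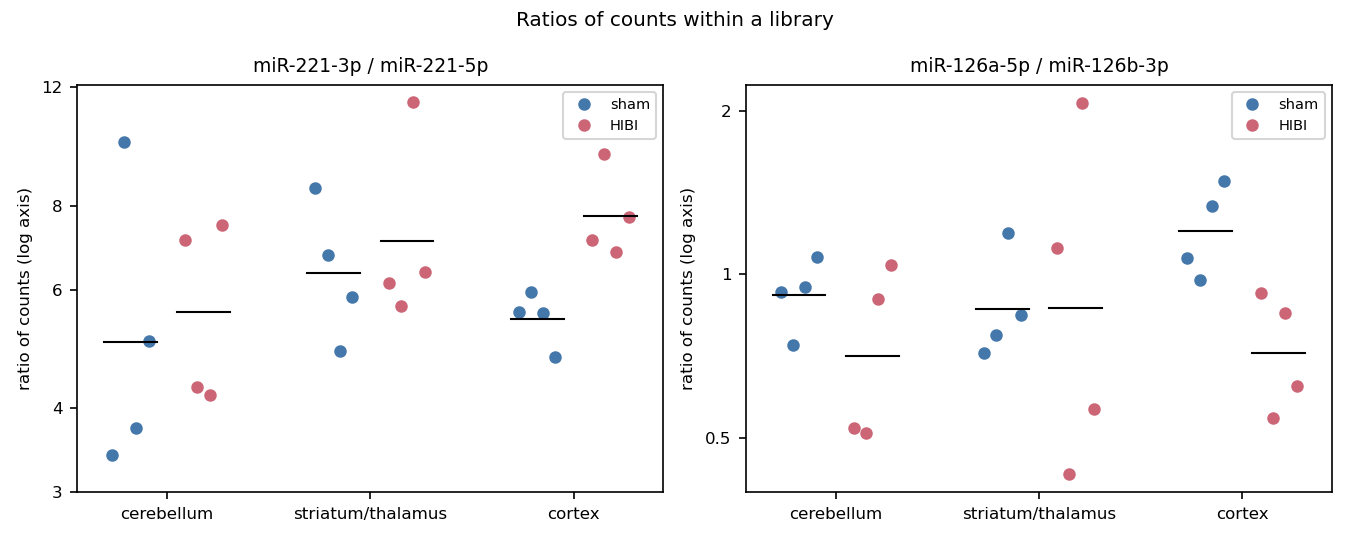
Ratios of counts within a library (log axis) for miR-221-3p to miR-221-5p (left) and miR-126a-5p to miR-126b-3p (right), by region. Points are libraries of sham (blue) and HIBI (red), and bars are geometric means of 4. In the cortex the groups do not overlap in either panel, and in the other regions they do.

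Within groups, some of the members went up and down together from pup to pup. After the mean of each group of 4 libraries was taken out, miR-126a-3p correlated across the 24 libraries with miR-143-3p at a Pearson r of 0.75 and with miR-145a-3p at 0.80, and with miR-145a-5p at -0.74. These are descriptions, and the libraries share pups and depth. Both arms of miR-145a ran against each other, at -0.58, although they come from the same hairpin, and miR-145a-5p had an r of -0.32 with its cluster neighbor miR-143-3p. MiR-126a-5p and miR-126b-3p had an r of 0.73, miR-221-3p and miR-222-3p of 0.61, and miR-221-3p and miR-221-5p of 0.33.

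Levels also differed with the numbers of the pups, which the labels tie to no batch. In 6 of the 6 groups the pups numbered 1 to 4 had less miR-145a-3p than those numbered 5 to 8, without overlap. The same held in 5 groups for miR-143-3p, 4 for miR-126a-3p, and 3 for miR-126a-5p and miR-221-5p. It held in 2 groups for miR-126b-3p, miR-221-3p, and miR-222-3p, and in 0 for miR-145a-5p. The reverse held in 3 groups for miR-145a-5p and in 1 each for miR-126b-3p and miR-221-3p. How often this occurred among all miRNAs was not counted. Each group sets 2 pups against 2, and the 6 groups are the same 8 pups seen in 3 regions, not separate observations. MiR-145a-3p had 8 to 88 counts in a library, and in the sham cortex pups 2 and 8 had 29 and 34. In the striatum/thalamus miR-145a-3p was at 5.43 to 6.77 CPM in pups 1 to 4 and at 9.40 to 17.7 CPM in pups 5 to 8. In the cerebellum miR-126a-3p was at 2107 to 3128 CPM in pups 1 to 4 and at 3389 to 4809 CPM in pups 5 to 8, while miR-145a-5p was at 516 to 773 CPM and at 489 to 507 CPM. Both HIBI and sham have 2 pups in each range of numbers. With a term for these numbers in the fit, miR-126b-3p in the cerebellum was called (log2 fold change 0.87, adjusted p = 0.247) and miR-126b-3p in the cortex was not (0.66, adjusted p = 0.793). MiR-221-5p in the cortex was at -0.47 (adjusted p = 0.360). In the cerebellum, miR-126a-3p then had a log2 fold change of 0.35 (adjusted p = 0.256) and miR-221-3p of 0.51 (adjusted p = 0.254), both under a fold change of 1.5.

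The ratio of miR-145a-5p to miR-145a-3p within a library followed the pup numbers in some groups and not in others. In the HIBI cerebellum it was 77.6, 48.4, 14.2, and 22.6 in pups 1, 4, 5, and 7. In the sham cortex it was 32.2, 31.8, and 32.4 in pups 2, 6, and 8 and 124 in pup 3, so pup 2 lay with pups 6 and 8. The group-centered level of miR-126a-3p had an r of 0.50 with the log2 total count of a library and 0.82 with the summed neural miRNAs, and that of miR-145a-5p had an r of -0.29 and -0.75. With the summed erythrocyte miRNAs, miR-221-3p had an r of -0.73. With 5 summed miRNAs of myeloid cells and platelets, miR-126a-3p had an r of 0.90. That sum is almost wholly miR-146a-5p, at 331 to 925 CPM, while miR-223-3p was at 10.6 to 51.3 CPM, miR-223-5p was at 0 in 22 libraries, and miR-142a-3p was at 0 in 18, so the value is that of miR-146a-5p and not of a class of cells. The part of depth, of neural RNA, or of blood in these values was not tested.

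**Figure D5:**
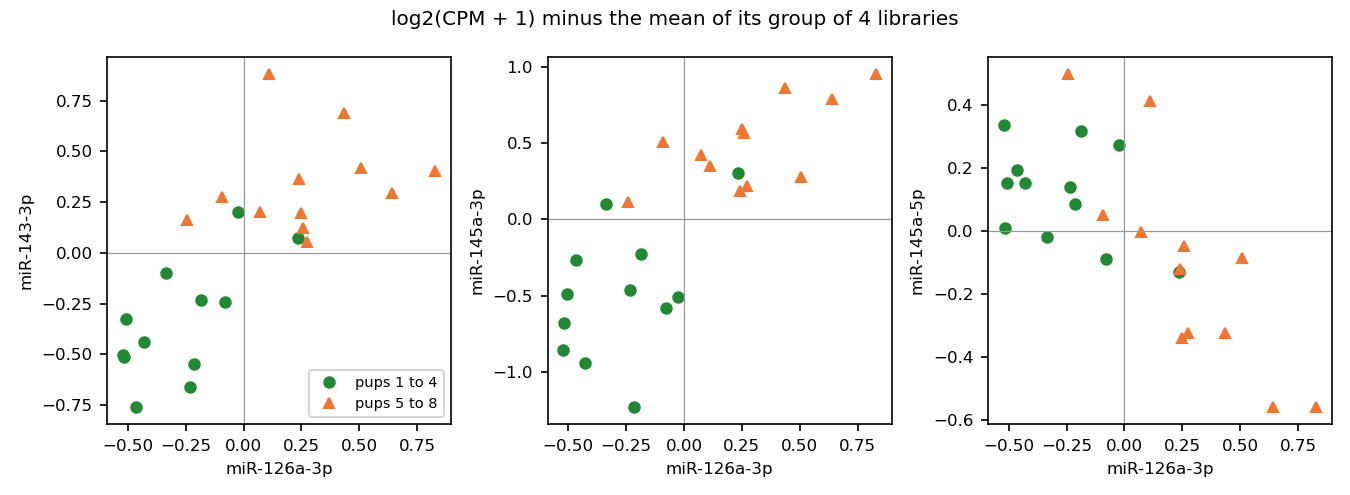
Log2(CPM + 1) minus the mean of its group of 4 libraries, for miR-126a-3p (horizontal axes) against miR-143-3p, miR-145a-3p, and miR-145a-5p (vertical axes). Each point is 1 of 24 libraries, with pups 1 to 4 as green circles and pups 5 to 8 as orange triangles. The points rise together for miR-143-3p (r = 0.75) and miR-145a-3p (r = 0.80) and run downward for miR-145a-5p (r = -0.74).

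Among 373 other miRNAs above 10 CPM in each region, the levels most like miR-126a-3p by the same group-centered correlation were those of miR-146a-5p (0.90), miR-376b-3p (0.90), miR-21a-5p (0.89), miR-9-5p (0.89), and miR-30e-3p (0.87), with 95% of the 373 below 0.81. Those most like miR-143-3p were miR-148a-3p (0.81), miR-322-3p (0.80), miR-21a-5p (0.76), miR-369-3p (0.76), and miR-411-3p (0.75). For miR-221-3p they were miR-335-3p (0.73), miR-1983 (0.66), miR-1839-5p (0.66), miR-379-3p (0.65), and miR-148b-3p (0.64). The median over the 373 was between 0.00 and 0.07 for these 3 members.

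Another 16 miRNAs linked to vessels and angiogenesis, among them miR-17-5p, miR-24-3p, and miR-27b-3p, were read beside the members. In edgeR 0 of 15 tested were called between HIBI and sham in the cerebellum, 0 of 12 in the striatum/thalamus, and 0 of 14 in the cortex, with 0, 0, and 1 of them at an unadjusted p under 0.05. Their median log2 fold changes were 0.13, -0.16, and -0.03. Between regions in sham pups, 1 of 15 was called higher and 7 lower in cortex than in cerebellum, beside 29.3% and 31.2% of all miRNAs. In striatum/thalamus against cerebellum 1 was called higher and 9 lower, beside 32.6% and 30.0%, and in cortex against striatum/thalamus 6 higher and 1 lower, beside 15.1% and 21.5%. Against the cerebellum the calls of this list were mostly lower, while those of all miRNAs were split about evenly between higher and lower. The cause was not tested. In both forebrain regions the called ones included miR-17-5p, miR-18a-5p, miR-19b-3p, miR-20a-5p, and miR-92a-3p of the miR-17/92 cluster. Neighbors in a cluster are not separate observations. The remaining marker lists gave few calls between HIBI and sham. Of 5 myeloid and platelet miRNAs, 2 were tested and 0 called by edgeR in each region, with 0 at an unadjusted p under 0.05. Of 5 choroid plexus miRNAs, miR-34b-3p was called higher in the striatum/thalamus, and of 6 fibroblast miRNAs, miR-214-3p, also in the striatum/thalamus. There 2.75% of all miRNAs were called, and the smallest adjusted p of either list was 0.980 in edgeR. The choroid plexus miRNAs had log2 fold changes of -0.68 to 0.75 there, in both directions.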

How the data were processed

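Small RNA was sequenced from 200 ng of total RNA per region (NEXTFLEX Small RNA Kit, NextSeq 550). Per the labels and methods, the authors aligned reads with Bowtie2 to mature miRNAs of miRBase, and deposited raw read counts per miRNA for each region, with no normalization. Versions, the strand setting, and the treatment of reads matching several miRNAs are not given in the sources used here. The 20 castor bean entries (0.000156% of counts) were left out of the 1551, and depth was 1254185 to 3406624 counts.

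Counts were fitted in R 4.3.3 with edgeR 4.0.16 (quasi-likelihood, TMM, average above 10 CPM), by region for HIBI against sham (4 and 4 libraries), over 12 sham libraries for regions, and over 24 for the interaction. DESeq2 1.42.0, other scalings and minimums, and each pup left out were alternatives. Permutation tests (SciPy 1.17.1, Python 3.11.15) used log2(CPM + 1), and ratios had 0.5 added to counts. Scripts were tested on simulated data. Each pup gave all 3 regions, so pup was a block in alternative fits between regions and of the interaction. Over 380 miRNAs, deviations of the same pup had a median correlation of 0.18 to 0.32 between regions, above 0.1 in 6 to 7 of 8 pups. Sequences and positions are from RefSeq and the GRCm38 annotation. Named were all 9 members, the 5 miRNAs most correlated with each of 3, and marker list miRNAs that were called (neural ones as a tissue check, and myeloid ones, beside that rule, after their values were seen). The members, lists, and tests were chosen with earlier results of these data known.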

Additional observations from a re-analysis of the deposited data

Results flagged for a closer look

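Among the 54 sets of 4 libraries (9 miRNAs in 6 groups), 2 had a library far from the other 3, where about 2.7 would be expected by chance at this criterion (Dixon's 95% critical value). In the HIBI cerebellum, miR-221-3p was at 193 CPM in pup 4 and at 292 to 309 CPM in the other pups. In the same group, miR-221-5p was at 69.4 CPM in pup 5 and at 41.1 to 44.7 CPM in the others.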

How the results depend on the processing

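The higher miR-221-3p, miR-221-5p, and miR-222-3p in both forebrain regions than in the cerebellum kept their calls under each alternative. In the cerebellum 2 members were called between HIBI and sham by library size only (miR-126b-3p and miR-221-3p) and 1 with the term for pups 1 to 4 (miR-126b-3p), and 0 to 1 with a pup left out. In the striatum/thalamus 0 to 1 were called with a pup left out. In the cortex 0 were called by upper quartile, above 1 CPM, with no minimum, by DESeq2, in the model of 24 libraries, and with the term for pups, and 0 to 1 with a pup left out. Between cortex and striatum/thalamus 5 were called with no minimum. The causes were not tested. With pup as a replicate block, the paired fits called 3, 5, and 3 members between regions, and no call but that of miR-126a-3p in striatum/thalamus against cerebellum changed. No paired analysis was possible for HIBI against sham because each pup was in a single group. Added after the data had been seen were the term for pups, the ratio of miR-126a-5p to miR-126b-3p, and the sum of miR-126a-5p and miR-126b-3p.

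Small differences changed sign. For HIBI against sham in the striatum/thalamus, miR-222-3p was at 0.0242 (DESeq2 size factors), 0.0511 (library size), 0.0247 (DESeq2), and 0.0686 (24 libraries) on the log2 scale, and miR-143-3p at -0.0460 (term for pups). For the interaction, miR-145a-5p was at -0.0178 (DESeq2 size factors), -0.156 (library size), -0.00063 (above 1 CPM), -0.0624 (no minimum), and -0.0177 (DESeq2). For cortex against cerebellum, above 1 CPM and with no minimum, miR-143-3p was at 0.0934 and 0.0922 and miR-145a-5p at 0.0274 and 0.0329, and miR-126a-3p was at -0.359 in HIBI libraries. For striatum/thalamus against cerebellum, miR-145a-5p was at -0.00948 (DESeq2 size factors), -0.166 (upper quartile), -0.0575 (no minimum), -0.00951 (DESeq2), and -0.0203 (pup block), and for cortex against striatum/thalamus at 0.0212 (above 1 CPM) and 0.0904 (no minimum).

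With each pup left out, log2 fold changes of HIBI against sham in the striatum/thalamus ran from -0.244 to 0.434 for miR-221-3p, -0.0918 to 0.149 for miR-222-3p, -0.312 to 0.346 for miR-143-3p, -0.260 to 0.648 for miR-145a-3p, and -0.218 to 0.0718 for miR-221-5p. In the cortex they ran from -0.00973 to 0.140 for miR-221-3p, -0.0590 to 0.235 for miR-143-3p, -0.169 to 0.0193 for miR-126a-3p, -0.249 to 0.0948 for miR-126a-5p, and -0.194 to 0.248 for miR-145a-3p. The interaction of miR-145a-5p ran from -0.106 to 0.214. Between regions they ran from -0.329 to 0.0222 for miR-143-3p and -0.174 to 0.372 for miR-126a-3p (cortex, cerebellum), -0.215 to 0.159 for miR-145a-5p (striatum/thalamus, cerebellum), and -0.0685 to 0.619 for miR-145a-3p and -0.289 to 0.0618 for miR-145a-5p (cortex, striatum/thalamus).

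Calls over all miRNAs for HIBI against sham numbered 34 (cerebellum), 12 (striatum/thalamus), and 14 (cortex). In that order they were 61, 19, and 41 above 1 CPM and 106, 54, and 86 with no minimum, where more miRNAs were tested. With a pup left out they were 18 to 82, 5 to 39, and 10 to 17. In the cerebellum the median log2 fold change of all miRNAs shifted by 0.16 with library size and by -0.13 with upper quartile. Counts of 2 to 60 limit what miR-126a-5p and miR-126b-3p can show.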
